A study of Homo sapiens with 6 samples.

Results

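Distal sites of open chromatin that were shared by HET-1A and KYSE-30 carried the core motif of AP-1 in 55.3% of cases, more often than the distal sites of either line alone. Of those with a peak in the longest list of each line, 6.54% also had a peak in a further library of KYSE-30. Among distal sites of KYSE-30 alone in its longest list the share was 1.69%, without matching for the width of the regions. By rule the shared sites had peaks in both lines, whereas 1 library sufficed for the others. Neither comparison was matched for this number of libraries. The shared sites were 1372 of the 23972 regions that remained when the peaks of all 6 libraries were merged by at least 1 bp of overlap. They were chosen by the peak calls of the libraries: a peak in at least 1 library of HET-1A and in at least 1 library of KYSE-30, none in KYSE-150, and a distance of over 3 kb from every annotated transcription start site (TSS). The presence of a peak, its fold enrichment and the distance to a TSS are therefore descriptions of how the regions were selected and not findings.

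In ATAC-seq the Tn5 transposase inserts adaptors where DNA is accessible, and open chromatin therefore yields more short fragments than its surroundings. HET-1A is a non-cancerous esophageal epithelial line that was immortalised with the SV40 large T antigen and was grown here in BEBM medium with its additives. KYSE-30 and KYSE-150 are lines of esophageal squamous cell carcinoma (ESCC) and were grown in RPMI/F12 with serum, so that medium and line cannot be told apart. The labels give no treatment, and each line is represented by 2 libraries, which are named by the numbers of their labels (HET-1A libraries 1 and 2, KYSE-30 libraries 4 and 6, KYSE-150 libraries 7 and 8). The labels do not say whether the libraries of a line came from separate cultures.

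The peak lists of a line differed widely in length, from 168 peaks in library 1 to 15979 in library 2 of HET-1A, from 1255 in library 4 to 11671 in library 6 of KYSE-30, and with only 547 and 259 for KYSE-150. Read totals are unknown. The genome background recovered from the lists, in tags per 200 bp, was 1.88 and 3.34 in HET-1A libraries 1 and 2. It was 2.36 and 1.49 in KYSE-30 libraries 4 and 6, and 2.80 and 2.64 in KYSE-150 libraries 7 and 8. The lowest value was thus that of KYSE-30 library 6, which had 1 of the 2 long lists. Of 13 marker genes of squamous or basal epithelium, 7 had a peak within 3 kb of a TSS in HET-1A library 2 and 3 in KYSE-30 library 6, and none in the other libraries. No library had such a peak at any of 4 blood markers, and of 6 mesenchymal markers only VIM had one, in KYSE-30 library 6. A design of 2 libraries against 2 cannot give an exact two-sided permutation p below 0.33, so no test between lines was made. Shares are given with Wilson 95% intervals, which cover counting error only, since regions are not replicates.

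Distal regions of open chromatin are mostly enhancers, silencers and insulators, at which sequence-specific factors displace nucleosomes. AP-1 is a dimer of JUN and FOS family proteins that acts at enhancers in many epithelial cells, is induced through growth factor receptors and MAP kinases, and reads the core TGACTCA or TGAGTCA. TEAD factors, the DNA-binding partners of YAP and TAZ, read ACATTCC and often act at the same enhancers as AP-1, whereas CTCF marks insulators and loop anchors.

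The following sequences are shown because they carry the result: the 2 regions with an AP-1 core, and the 1 with a TEAD core, that had the highest fold enrichment in the weaker of HET-1A library 2 and KYSE-30 library 6 among the members with that motif. Each is the 201-bp window (hg19, plus strand) around the summit of the peak with the smallest p-value, with the AP-1 core in capitals in the first pair and the TEAD core in capitals in the last.
AP-1, 577 kb upstream of CDH18, chr5:21152760-21152960: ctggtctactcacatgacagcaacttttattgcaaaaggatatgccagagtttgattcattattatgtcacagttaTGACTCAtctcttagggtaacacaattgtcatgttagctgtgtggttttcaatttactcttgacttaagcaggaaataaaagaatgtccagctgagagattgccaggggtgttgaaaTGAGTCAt
AP-1, 183 kb downstream of the TSS of TRIM32, chr9:119632915-119633115: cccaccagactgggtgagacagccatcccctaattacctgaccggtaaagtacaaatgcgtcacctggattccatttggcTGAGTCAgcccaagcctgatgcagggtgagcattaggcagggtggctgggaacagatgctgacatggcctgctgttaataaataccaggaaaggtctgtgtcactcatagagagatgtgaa
TEAD, 33.2 kb downstream of the TSS of CYP24A1, chr20:52740312-52740512: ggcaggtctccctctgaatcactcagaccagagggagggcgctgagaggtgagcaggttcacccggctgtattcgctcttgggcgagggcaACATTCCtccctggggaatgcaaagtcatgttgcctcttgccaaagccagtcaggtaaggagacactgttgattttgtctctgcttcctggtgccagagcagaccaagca
The first window held 2 AP-1 cores, with centres at -21 and 96 bp from the summit, and the second held 1 at -17 bp. The TEAD core of the third lay at -6 bp. Their fold enrichments were 9.36, 8.01 and 7.59 in HET-1A library 2 and 8.84, 8.37 and 10.9 in KYSE-30 library 6.

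Within these 201-bp windows, 759 of the 1372 shared distal regions held an AP-1 core on either strand (55.3%, 52.7 to 57.9%). Windows of the same length 10 kb downstream held one in 2.41% (1.72 to 3.36%), and windows set every 10 kb along the genome in 3.06% of 285850. The share was 26.9% (25.8 to 28.0%) in the 6132 distal regions with a peak in HET-1A only and 37.4% (35.9 to 38.8%) in the 4099 with a peak in KYSE-30 only. In the 3085 shared regions within 3 kb of a TSS it was 11.3%. It was also low, at 12.1% (4.82 to 27.3%), in the 33 distal regions with peaks in all 3 lines. The intervals of the shared distal regions and of the line-only regions did not overlap, and the difference itself was not tested. The members had peaks in both lines by rule, whereas line-only regions mostly had a peak in 1 library. Of the 3850 KYSE-30-only regions of KYSE-30 library 6, 65 also had a peak in library 4. Of the 6044 HET-1A-only regions of HET-1A library 2, 12 also had one in library 1. Sharing between lines was thus not separated from a call in more than 1 library.

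**Figure D1:**
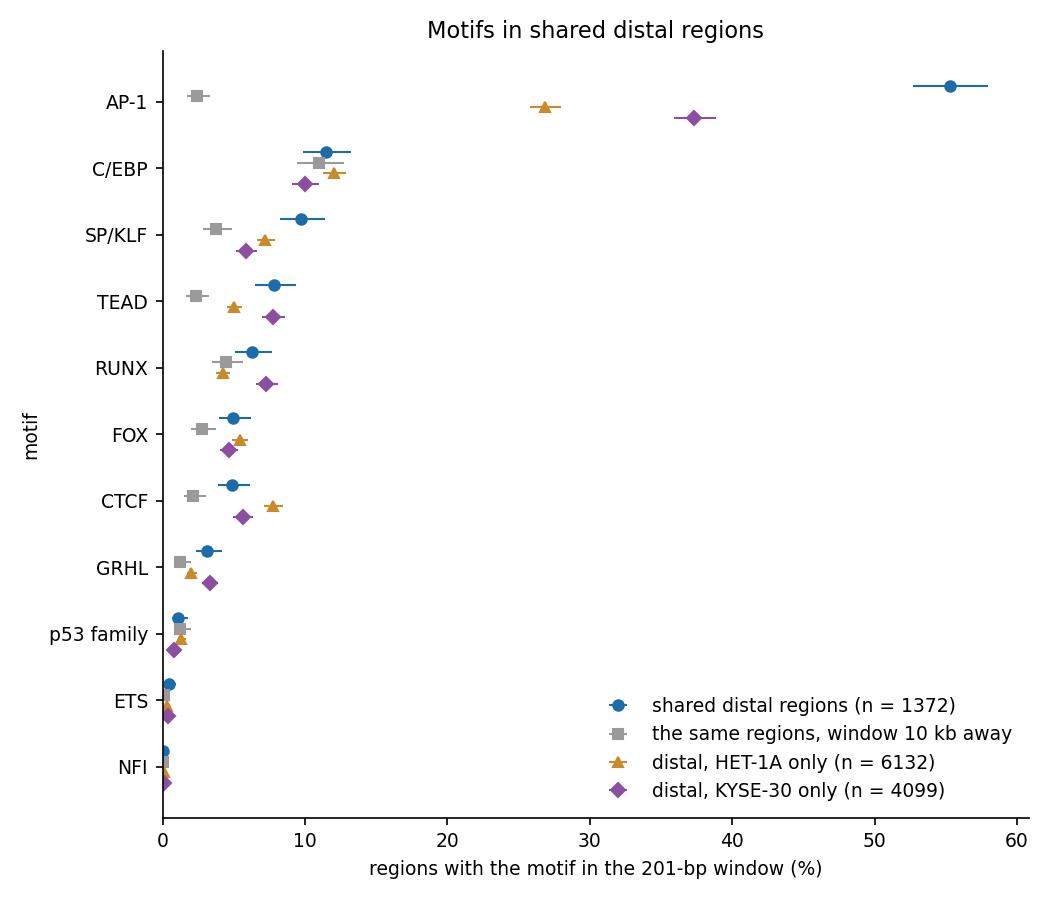
Share of regions (%, horizontal axis) with each of 11 motifs in the 201-bp window around the summit, for the shared distal regions, the same regions 10 kb away, and the distal regions of HET-1A only and KYSE-30 only, with Wilson 95% intervals as bars. AP-1 stands at 55.3% in the shared distal regions against 26.9% and 37.4% in the line-only regions and 2.41% at 10 kb, while no other motif exceeds 12.1% in any of these groups.

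The shared regions had higher peaks than the line-only regions, with a median fold enrichment of 4.67 against 3.81 in HET-1A library 2 and of 5.77 against 5.22 in KYSE-30 library 6. The AP-1 share was therefore compared between regions of more similar height. The distal peaks of each library were divided into 3 equal groups by fold enrichment, and motifs were searched around the library's own summit. In HET-1A library 2 the AP-1 share of shared and HET-1A-only regions was 47.1% and 13.2% in the lowest group, 48.5% and 30.1% in the middle group, and 59.9% and 43.8% in the highest. In KYSE-30 library 6 the shares of shared and KYSE-30-only regions were 41.2% and 23.7%, 51.9% and 43.7%, and 60.8% and 54.2% in the same order. The share was the higher in the shared regions in each of these 6 pairs, and the intervals of a pair did not overlap in any of them except the highest group of KYSE-30 library 6 (56.8 to 64.6% against 51.3 to 57.0%). The AP-1 share was higher in the higher groups of both kinds of region, and in HET-1A library 2 the gap was widest in the lowest group.

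**Figure D2:**
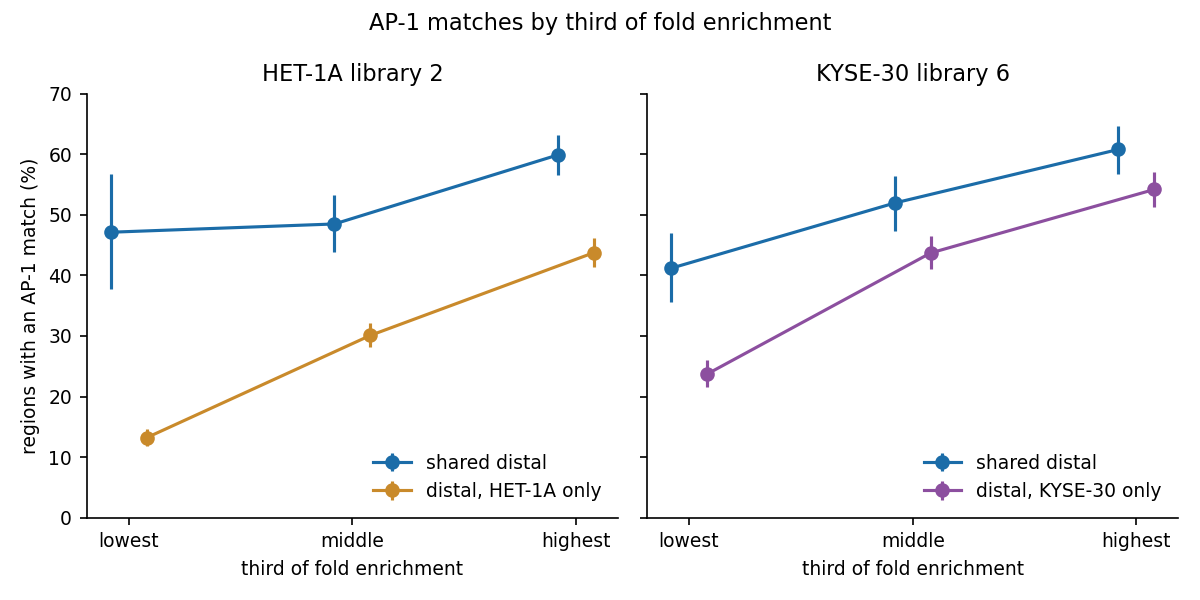
Share of distal regions with an AP-1 core (%, vertical axis) in 3 equal groups of fold enrichment (horizontal axis), for the shared regions and the line-only regions with a peak in HET-1A library 2 (left) or KYSE-30 library 6 (right), with Wilson 95% intervals as bars. The shared regions lie above the line-only regions in each group, from 47.1% against 13.2% to 59.9% against 43.8% on the left and from 41.2% against 23.7% to 60.8% against 54.2% on the right.

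Several cores in a window were also more frequent in the shared distal regions. Of them, 592 held 1 AP-1 core and 167 (12.2%) held more, up to 5, compared with 3.21% of HET-1A-only and 6.73% of KYSE-30-only distal regions with more than 1. The cores gathered near the summit: 353 of 950 (37.2%) had their centre within 25 bp of it, where an even spread would place 26.2%, and 26.3% did so in the windows 10 kb away. The median distance from the summit was 34.0 bp, close to the 33.0 bp of either kind of line-only region, so that the position of the cores set the shared regions apart less than their number. The bases beside the core, read with the core as TGAGTCA, were A in 35.2%, G in 31.2%, C in 25.3% and T in 8.29% of matches on the 5′ side. T was before the core in 21.6% of the 37 matches with full flanks 10 kb away, and in 8.52% and 7.10% of those of the HET-1A-only and KYSE-30-only regions.

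**Figure D3:**
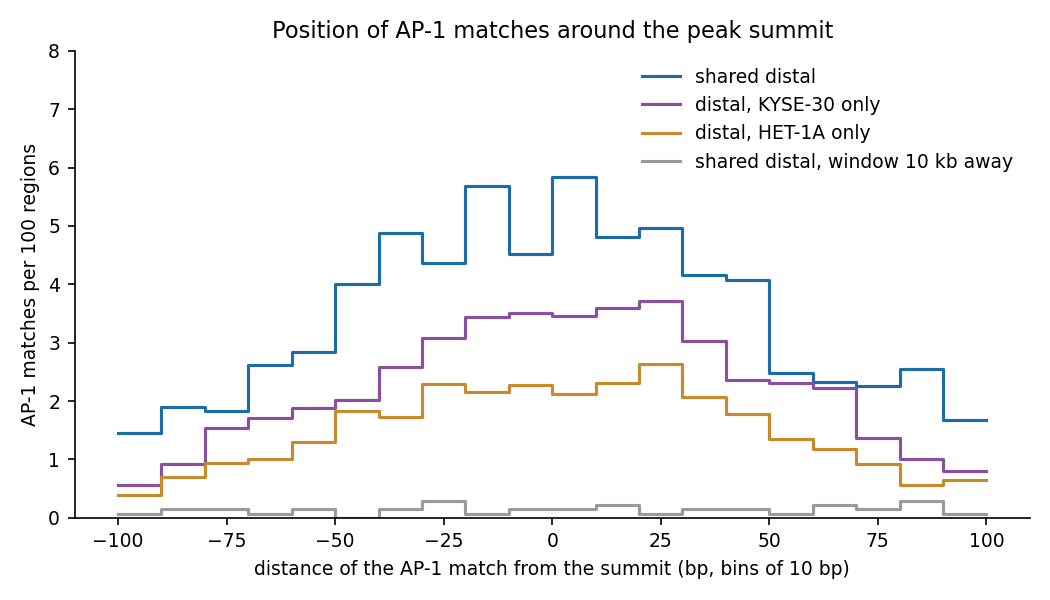
AP-1 cores per 100 regions (vertical axis) in bins of 10 bp by distance from the summit (horizontal axis), for the shared distal regions, the line-only distal regions and the shared regions 10 kb away. The line of the shared distal regions lies above the others and is highest within about 25 bp of the summit, where 37.2% of its cores fall.

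Several other motifs were also more frequent in the members than in their surroundings, at far lower shares. TEAD was found in 107 shared distal regions (7.80%, 6.49 to 9.34%), against 2.33% at 10 kb and 2.85% of genome windows, and in 5.02% of HET-1A-only and 7.76% of KYSE-30-only distal regions. The Grainyhead-like motif (AACCNGTT), read by epithelial factors such as GRHL2, was in 3.13% against 1.24% at 10 kb and 1.35% of genome windows. The RUNX motif (AACCACA) was in 6.27% against 4.45% and 3.91%, and the forkhead motif (TGTTTAC) in 4.96% against 2.77% and 3.13%. The C/EBP motif (TTGCNNAA), which was in 11.4% of the regions, was no more frequent there than at 10 kb (11%) or in the genome (10.8%). The intervals of the regions and of their windows at 10 kb overlapped for RUNX, C/EBP and ETS and did not for TEAD, GRHL, FOX, CTCF and SP/KLF. Line-only distal regions held GRHL in 2.01% (HET-1A) and 3.29% (KYSE-30), RUNX in 4.21% and 7.29%, and FOX in 5.43% and 4.64%.

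CTCF, taken as CC, any 3 bases, AG, any 2 bases and GGC, was found in 67 shared distal regions (4.88%, 3.86 to 6.16%), against 2.11% at 10 kb and 1.46% of genome windows. This was below the 7.76% (7.12 to 8.46%) of HET-1A-only distal regions and had an interval that overlapped that of KYSE-30-only regions (5.61%, 4.95 to 6.36%). The SP/KLF and ETS motifs, which are typical of promoters, were rarer in the distal members than in shared regions near a TSS. The SP/KLF box (GGGCGG) was in 9.69% (8.24 to 11.4%) of shared distal regions, above 3.72% (2.84 to 4.85%) at 10 kb and 2.86% of genome windows, and in 57.1% of shared regions near a TSS. It was in 7.22% of HET-1A-only and 5.86% of KYSE-30-only distal regions. The share of the ETS motif (CCGGAAGT) was 0.437% against 7.55% near a TSS and 0.0885% of genome windows. A pair of CATG cores 6 bases apart, as in the sites of the p53 family, was in 1.09% of the regions and 1.24% of their windows at 10 kb (1.01% of genome windows). TTGGC and GCCAA 5 bases apart, the full palindrome of NFI factors, was in 0 of 1372 windows (upper limit of the interval 0.279%) and in 0.0133% of genome windows. None of the 11 motifs was present in 316 regions (23%).

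Other motifs were not more frequent beside an AP-1 core. TEAD was in 6.19% of the 759 regions with an AP-1 core and in 9.79% of the 613 without one, and the values were 3.82% and 6.20% for CTCF, 2.37% and 4.08% for GRHL and 7.91% and 11.9% for SP/KLF. The intervals of each of these pairs overlapped. Over 4 equal groups of the lower fold enrichment of the 2 long lists the AP-1 share was 48.1% (fold enrichment 1.82 to 4.07), 53%, 59.0% and 62.6% (5.20 to 8.84), with intervals of the first and last groups that did not overlap, and that of CTCF was 7.12%, 5.33%, 4.19% and 2.67%. AP-1 was in 57.6% of intronic and 52.2% of intergenic regions, and in 52.1%, 57.1% and 58.3% of the regions at 3 to 10 kb, 10 to 50 kb and over 50 kb from a TSS, with overlapping intervals throughout.

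Most members rested on the 2 longest lists. A peak in HET-1A library 2 and KYSE-30 library 6 alone made up 1258 members, and 88 more also had a peak in KYSE-30 library 4. A further 24 combined HET-1A library 2 with KYSE-30 library 4, 1 had peaks in both HET-1A libraries and KYSE-30 library 4, 1 combined HET-1A library 1 with KYSE-30 library 6, and no member had a peak in all 4 libraries. The absence of a KYSE-150 peak removed few regions, since distal regions with peaks in all 3 lines numbered 33, and the KYSE-150 lists are short.

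KYSE-30 library 4 did not enter the choice of the 1346 members with peaks in HET-1A library 2 and KYSE-30 library 6, so its peaks are a separate reading of them. Of these members 88 had a peak in it (6.54%, 5.34 to 7.99%), against 65 of the 3850 KYSE-30-only distal regions of library 6 (1.69%, 1.33 to 2.15%). Over all distal regions of library 6 the share was 3.19%. The shared regions had the higher share in each of 3 equal groups by fold enrichment in library 6, with 3.13% against 0.831% in the lowest, 4.09% against 1.58% in the middle and 10.1% against 2.90% in the highest. The intervals did not overlap in any of the 3 groups. The merged regions of the members were wider, with a median of 368 bp against 253 bp in KYSE-30-only distal regions. Any peak of library 4 in a merged region was counted, and the regions were not matched for width. The members also had, by choice, a peak in HET-1A library 2, which the KYSE-30-only regions lacked. They thus differed in the number of libraries with a peak as well as in the lines, and the part of this was not tested.

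HET-1A library 1, with its list of 168 peaks, could not serve in the same way. It had a peak at 0 of these 1346 members, which allows a share of up to 0.285%, and at 12 of 6044 HET-1A-only distal regions of library 2 (0.199%). The share over all distal regions of library 2 was 0.401%. A difference between the shared and the HET-1A-only regions was not detectable with a list of this length.

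**Figure D4:**
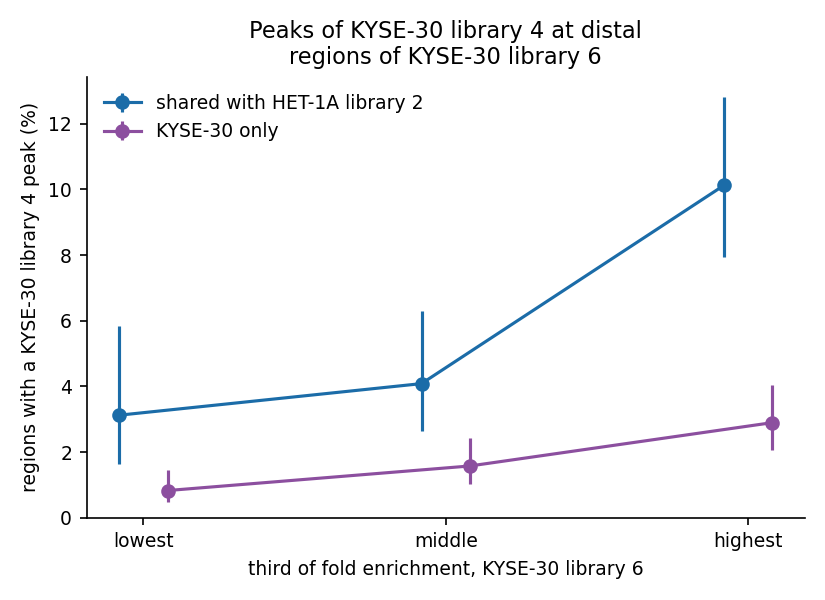
Share of distal regions of KYSE-30 library 6 with a peak in KYSE-30 library 4 (%, vertical axis) in 3 equal groups of fold enrichment in library 6 (horizontal axis), for the regions shared with HET-1A library 2 and for KYSE-30-only regions, with Wilson 95% intervals as bars. The shared regions rise from 3.13% to 10.1% and lie above the KYSE-30-only regions, which go from 0.831% to 2.90%.

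The distance between the summits of the 2 lines is limited by the rule, which requires their peaks to fall in 1 merged region. The median peak was 271 bp wide in HET-1A library 2 and 284 bp in KYSE-30 library 6. The distances below are therefore descriptions, and none was computed for unrelated peaks. Over the 1346 members with a peak in both long lists, the summits were a median of 38 bp apart (quartiles 14 and 76 bp), and 805 (59.8%) were within 50 bp. The median was 34 bp in members with an AP-1 core and 45 bp in those without, and 45 bp in shared regions near a TSS. The heights of the peaks were only weakly related: Spearman's rho across regions was 0.222 for fold enrichment and 0.059 for tags at the summit, and these regions share their libraries and are not independent replicates. Fold enrichment ran from 1.82 to 9.48 in HET-1A library 2 (median 4.67, n = 1371) and from 2.62 to 13.9 in KYSE-30 library 6 (median 5.77, n = 1347), with medians of 25 and 18 tags at the summit. By p-value the members ranked at a median of 39.6% and 40.2% of the list, counted from the top.

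**Figure D5:**
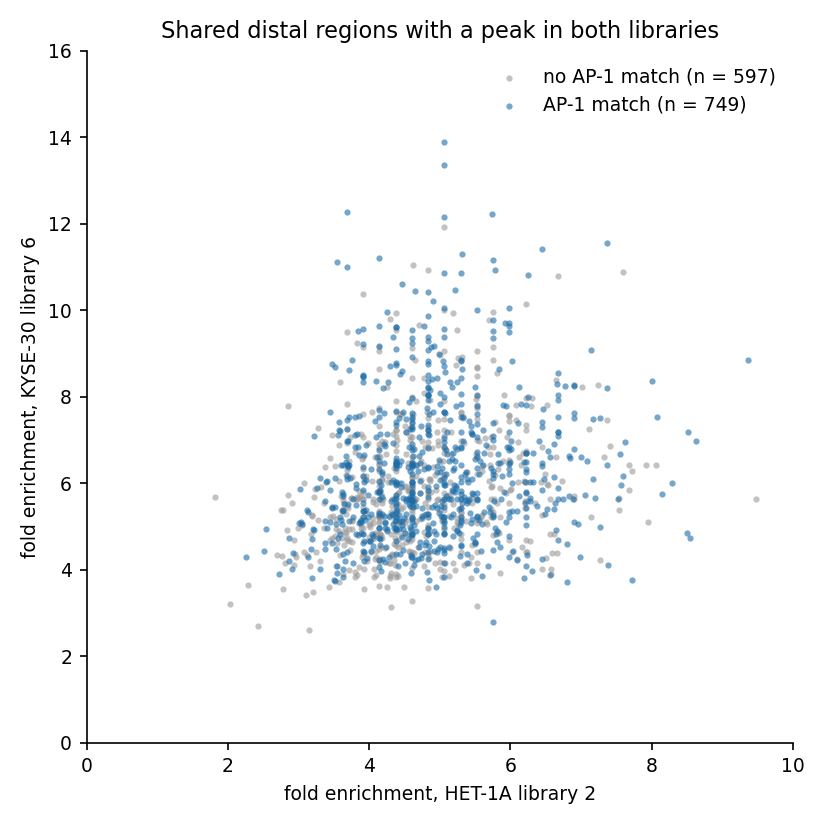
Fold enrichment of the 1346 members with a peak in both long lists, in HET-1A library 2 (horizontal axis) and KYSE-30 library 6 (vertical axis), with 1 point per region coloured by the presence of an AP-1 core. The cloud has little slope (rho of 0.222), and regions with a core, 749 in all, lie across its whole range.

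Introns held 746 of the members (54.4%, 51.7 to 57.0%), intergenic sequence 594 (43.3%) and exons 32 (2.33%), by the position of the summit. The intron share was 54.5% in HET-1A-only and 56.1% in KYSE-30-only distal regions. The distance to the nearest TSS had a median of 13.9 kb and a maximum of 264 kb, and 62.8% of the members were over 10 kb away. The limit of 3 kb cut through a continuous range: the nearest members lay at 3005, 3009 and 3061 bp, and the nearest shared regions left out at 2993, 2974 and 2971 bp. Merged regions were 201 to 1518 bp wide (median 368 bp), and the GC content of the windows had a median of 48.8%, compared with 43.3% at 10 kb. Distal regions made up 30.8% (29.4 to 32.2%) of the 4457 regions shared by HET-1A and KYSE-30 without KYSE-150, and 54.2% and 54.9% of the HET-1A-only and KYSE-30-only regions.

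At EGFR, the receptor of epidermal growth factor that is often amplified in ESCC, 3 members were found that had it as the nearest protein-coding gene. They are shown because the study named the first (EGFRnc4) among its non-coding RNA regions upstream of the gene. The sequences are 201-bp windows (hg19, plus strand) around the summit, with AP-1 and TEAD cores in capitals.
EGFRnc4, chr7:55035184-55035384: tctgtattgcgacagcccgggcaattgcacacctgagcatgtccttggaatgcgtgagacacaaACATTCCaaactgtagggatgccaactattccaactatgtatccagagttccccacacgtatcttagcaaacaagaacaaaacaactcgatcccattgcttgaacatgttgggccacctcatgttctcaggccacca
33.0 kb upstream of EGFR, chr7:55053202-55053402: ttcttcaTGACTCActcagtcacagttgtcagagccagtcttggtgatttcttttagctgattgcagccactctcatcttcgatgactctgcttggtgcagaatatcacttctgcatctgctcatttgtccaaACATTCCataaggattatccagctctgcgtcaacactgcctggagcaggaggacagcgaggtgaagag
intron of EGFR, chr7:55200581-55200781: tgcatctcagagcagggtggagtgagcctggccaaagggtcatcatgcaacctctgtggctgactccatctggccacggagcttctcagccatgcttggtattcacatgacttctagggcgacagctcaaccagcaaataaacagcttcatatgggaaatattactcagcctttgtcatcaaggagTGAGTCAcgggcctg
The window of EGFRnc4 held a TEAD core at -33 bp. The window 33.0 kb upstream held an AP-1 core at -90 bp and a TEAD core at 36 bp, and the intronic window an AP-1 core at 89 bp.

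EGFRnc4 (chr7:55035004-55035616, intergenic, 51.1 kb upstream of EGFR) had a fold enrichment of 6.91 in the second HET-1A library and of 3.12 and 5.72 in libraries 4 and 6 of KYSE-30. The region 33.0 kb upstream (chr7:55053075-55053670) had 4.14, 2.94 and 6.51 in the same order, and the intronic region (chr7:55200292-55201809), which was the widest of all members, had 6.45, 4.04 and 7.43. HET-1A library 1 had no peak at any of them. Fold enrichment is taken over the local background, and here the backgrounds differed: relative to the genome background of the library they were 1.00 for HET-1A (library 2) at all 3 regions, and for KYSE-30 they were 8.20 to 13.6 (library 4) and 10.97 to 19.96 (library 6). The tags at the summit were 29, 17 and 27 in HET-1A library 2 and 98, 116 and 227 in KYSE-30 library 6. HET-1A thus had peaks at the 3 regions on an ordinary background and KYSE-30 on a raised one, and the part of this background in the calls was not tested. A further region that the study named, EGFRnc1 (chr7:54898825-54899839), was also a member, with SEC61G as its nearest coding gene. Its window held no AP-1 or TEAD core. The fold enrichments at EGFRnc1 were 3.91 in HET-1A library 2 and 2.88 and 6.60 in KYSE-30 libraries 4 and 6. Its relative backgrounds were 1.00, 9.13 and 11.9 in the same order. EGFRe1, EGFRnc2 and EGFRnc5 lay in regions with peaks in KYSE-30 only.

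A local background of at least 4 times the genome background was called raised. A raised background was present at 36 members with a peak in HET-1A library 2 (2.63%), against 11.1% of HET-1A-only distal regions. In KYSE-30 it was at 23 members of library 6 (1.71%, line-only 1.30%) and at 6 of library 4 (5.31%, line-only 12.7%). In HET-1A library 2 it was found at 9 members on chromosome 8 from 128 to 130 Mb (11.2 to 21.1), at 5 on chromosome 18 from 3 to 4 Mb (12.48 to 22.8), at 9 on chromosome 11 from 68 to 72 Mb (4.86 to 21.9), and at 9 on chromosome 8 from 117 to 121 Mb (4.12 to 5.70). KYSE-30 library 6 was raised at 2 of the chromosome 18 window (5.23 and 5.32), at 5 on chromosome 11 from 70 to 72 Mb (4.99 to 10.6), at the EGFR locus and at 3 on chromosome 17 from 15 to 16 Mb (4.87 to 5.62). Without the members raised in any library, the AP-1 share was 55.7% of 1321, and the line-only regions were not filtered in this way.

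The members were spread over 874 windows of 1 Mb, and the densest held 8. This was chromosome 6 from 28 to 29 Mb, where no window of a member held an AP-1 core, followed by chromosome 6 from 27 to 28 Mb with 7 members, of which 1 had a core. These windows hold clusters of histone and zinc finger genes. Chromosome 1 from 209 to 210 Mb had 6 members, 4 with an AP-1 core, and 2 of them had the host gene of miR-205 (MIR205HG), a microRNA of squamous epithelium, as the nearest gene. Of those 2, the region at chr1:209589404-209589793 had an AP-1 core and fold enrichments of 6.80 in the second HET-1A library and of 3.14 and 4.59 in libraries 4 and 6 of KYSE-30. Chromosome 16 from 57 to 58 Mb had 6 members, 2 with a core, and chromosome 8 from 129 to 130 Mb had 6, 3 with a core, on the raised background of HET-1A library 2. Chromosome X held 8 members (0.583%), against 5.02% of the genome's length, 0.408% of HET-1A-only and 2.03% of KYSE-30-only distal regions.

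The 1372 regions had 1258 different genes as the nearest by TSS, so that few genes had several. ADORA2B, a receptor of adenosine, had 4, of which 3 held an AP-1 core, and PVT1, a long non-coding RNA beside MYC, had 4, of which 1 did. Another 9 had 3 each: ADGRF1 (an adhesion G protein-coupled receptor), ANXA4 (an annexin), ATXN1 (a transcriptional regulator), GALNT2 (a glycosyltransferase of the Golgi), IER5 (an immediate early response gene), SPIDR (a DNA repair scaffold) and 3 non-coding genes known by identifier, ENSG00000234261, ENSG00000263745 and ENSG00000283286. All 3 regions held an AP-1 core at ANXA4, ATXN1, GALNT2 and ENSG00000283286, and none did at ENSG00000263745. At ANXA4 the 3 regions lay in introns, with fold enrichments of 5.30, 4.45 and 5.00 in HET-1A library 2 and 7.19, 5.91 and 6.25 in KYSE-30 library 6. The 2 genes with most regions lay in segments of raised background. The relative background was 3.05 to 5.62 at the ADORA2B regions in KYSE-30 library 6. At the PVT1 regions it was 15.2 to 21.1 in HET-1A library 2.

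Counted over protein-coding genes alone, MYC had the most members (8, of which 3 with an AP-1 core), followed by CDH18, a cadherin, with 6, and by CAMK1G, a calmodulin-dependent kinase, and PTGER4, a receptor of prostaglandin E2, with 5 each. This count was added after the data were seen. The MYC regions lay 139 to 816 kb from its TSS, all in introns of other annotated genes, and included the 4 counted for PVT1 above. They had a relative background of 12.05 to 21.1 in HET-1A library 2 and 1.08 to 2.04 in KYSE-30 library 6. Their fold enrichment in HET-1A library 2 ran from 1.82, the lowest of any member there, to 5.53. The 5 regions at PTGER4 lay 127 to 298 kb from its TSS and all held an AP-1 core. Their fold enrichments were 5.46, 5.69, 5.37, 3.52 and 4.63 in HET-1A library 2 and 7.14, 4.08, 5.61, 8.69 and 6.64 in KYSE-30 library 6, and 1 of the 5 had a peak in KYSE-30 library 4 (5.11).

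The 10 members with the highest fold enrichment in the weaker of the 2 long lists had nearest coding genes of different function, and 7 of them held an AP-1 core. Among these was the region near CDH18 shown above, which had 40 tags at the summit in HET-1A library 2 and 21 in KYSE-30 library 6. The region near CYP24A1, the enzyme that inactivates vitamin D, had 35 and 38 tags. A region in an intron near SLC35F4 (chr14:58300034-58300379) held 3 AP-1 cores, with fold enrichments of 8.07 and 7.54, and a region near MCTP2 (chr15:95790320-95790853) had 7.37 and 11.6. The others lay near TRIM32, SYK, PRAG1, LRATD2, ZNF692 and MCCC2. None of the 10 had a peak in KYSE-30 library 4 or HET-1A library 1, which had peaks at only 113 and 2 of all 1372 members.

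Among the gene lists, the EGFR pathway had members at 8 of its 22 genes (36.4%), against 5.65% of all 20136 protein-coding genes. The share was 40.9% for HET-1A-only and 77.3% for KYSE-30-only distal regions, where all coding genes had 17.2% and 13.1%. Of the 13 regions at these genes 10 held an AP-1 core (76.9%, against 55.3% of all members). They included 3 at TGFA, a ligand of EGFR, 3 at EGFR itself, 1 at SPRED2, an inhibitor of RAS signalling, 1 at EPHA2, a receptor tyrosine kinase, and 5 at the dual-specificity phosphatases DUSP4, DUSP5, DUSP6 (with 2) and DUSP10, which switch off MAP kinases. At DUSP10 the region (chr1:222060492-222060888, 145 kb upstream) had fold enrichments of 6.84 in HET-1A library 2 and 6.63 in KYSE-30 library 6. At DUSP6 the 2 regions lay 125 and 286 kb downstream and both held an AP-1 core.

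Squamous lineage factors had members at 5 of 16 genes (31.2%): TP63, SOX2, KLF4, GRHL2 and TFAP2C. This was above the 5.65% of all coding genes, but HET-1A-only and KYSE-30-only distal regions, which are more numerous, lay at 43.8% and 50% of the same genes. The region at TP63, the master factor of squamous epithelium, lay in its intron 44.2 kb downstream of the nearest TSS of the gene, without an AP-1 core, and had fold enrichments of 5.76 in HET-1A library 2 and 5.25 in KYSE-30 library 6. That near SOX2 was 501 kb downstream and held an AP-1 core. Of the 6 regions at these genes 2 held one. Integrins, laminins and focal adhesion genes had members at 6 of 24 genes (25%, with 37.5% for HET-1A-only and 29.2% for KYSE-30-only regions), and 5 of their 6 regions held an AP-1 core. These 5 were at ITGA6, the partner of integrin beta 4 in hemidesmosomes, at ITGAV and ITGB6, which pair as an epithelial integrin that activates TGF-beta, at LAMC1, a laminin chain, and at ACTN1, an actin crosslinker of focal adhesions. The regions at ITGB6 and LAMC1 also had a peak in KYSE-30 library 4, with fold enrichments of 4.77 and 4.71.

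YAP and TEAD pathway genes had members at 4 of 14 genes (28.6%, with 42.9% for HET-1A-only and 28.6% for KYSE-30-only regions), TEAD1, YAP1, CCN1 and AMOTL2, and of their 5 regions 1, at AMOTL2, held an AP-1 core. Genes of the mesenchymal transition had members at 4 of 16 (25%, with 43.8% and 37.5% in the same order): TGFB2 with 4, TWIST2 with 2, and SNAI2 and TGFBI with 1 each, and 5 of the 8 regions held a core. Actin and myosin genes had 2 of 14 (MYH9 and TPM1), the AP-1 subunits and their partners 1 of 13 (ATF3, without a core), and ribosomal protein genes 0 of 14, a list taken for comparison. HET-1A-only regions lay at 28.6%, 46.2% and 7.14% of these 3 lists and KYSE-30-only regions at 21.4%, 23.1% and 7.14%. The length of the sequence around a gene, over which distal regions can lie, was not taken into account. The lists are small, and none was tested against other genes.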

How the data were processed

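The data were the authors' peak lists of 6 ATAC-seq libraries. The authors trimmed the reads, marked duplicates (Picard 2.2.1), mapped them to hg19 (Bowtie2 2.3.3.1), removed blacklisted regions (bedtools 2.7.1), corrected the cut positions of Tn5 and restricted the data to fragments below 100 bp. They ran MACS2 on each library, without pooling, at a q-value of 0.05. The deposited lists give a score, a fold enrichment (a ratio of summit tags to local background, after 1 is added to both), and the p-value and q-value of each peak as −log10. All are the authors' values and apply within a list.

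Peaks were merged by 1 bp of overlap, and distances taken to all transcripts of GENCODE release 44 lifted to hg19, whose chromosome names and lengths were checked against the lists. Tags and local background were recovered from fold enrichment and p-value to within 0.001 of the −log10 p. Motifs were searched on both strands in 201-bp windows of the hg19 genome, with overlapping matches counted and unknown bases in the comparison window of 3 members. A gene was counted as having a member where its TSS was the nearest protein-coding one. The functions were tested on simulated data. Python 3.11.15, pandas 2.3.3, scipy 1.17.1, pysam 0.24.0 and statsmodels 0.14.6 were used.

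The members, gene lists and motifs were chosen with earlier results of these data known. The text names the members with peaks in all 4 libraries of HET-1A and KYSE-30 (there were 0), the 10 with the highest lower fold enrichment, those at EGFR, the 5 densest 1-Mb windows and the 10 genes nearest to most members, with ties. Windows are printed for AP-1, TEAD and the EGFR locus. Those of CTCF, the p53 family and EGFRnc1, and the second for TEAD, were also due by that rule and are not printed, since little rests on them. For a printed window, chromosome 8 was not used. Some items are not reported here.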

Additional observations from a re-analysis of the deposited data

How the results depend on the processing

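The 6 main values were recomputed under 81 alternatives in all, of which 54 left the number within 1.5 times or the share within its 95% interval. With q-values under 0.01 or 0.001 and without regions of raised background (added after seeing the data) none left this range. Leaving out a library gave 2 to 1383 members, AP-1 shares of 0 to 55.6%, CTCF shares of 0 to 6.31%, intron shares of 47.7 to 54.6% and distal shares of 20.1 to 50%. The number fell most, by construction, without either of the 2 long lists: 2 members remained without HET-1A library 2 and 111 without KYSE-30 library 6, of which 51.4% held an AP-1 core. Without any other library the number was 1347 to 1383.

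With 5000 peaks from each long list there were 326 members, with an AP-1 share of 60.4%, a CTCF share of 2.45%, an intron share of 57.1% and a distal share of 23.9%. With protein-coding start sites alone the AP-1, intron and distal shares were 51.8%, 51.5% and 39.0%. A limit of 10 kb gave 861 members, with intron and distal shares of 50.5% and 19.3%, and a limit of 1 kb a distal share of 36.7%. A reciprocal overlap of 50% gave a distal share of 32.2%. Searching the whole merged region gave 63.8% for AP-1 and 8.89% for CTCF, and searching 50 bp to each side 39.6% and 2.55%, since more or less sequence was searched. Requiring a peak in both libraries of each line left 0 members.

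No paired analysis was possible because the numbers of the libraries are not shared between lines. The lists of 4 libraries, those of KYSE-150 among them, hold at most 1255 peaks, so that a missing peak in them does not show closed chromatin. Read totals are unknown, and the part of depth in the length of the lists was not tested.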

Other observations

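The members without an AP-1 core on chromosome 6 were examined after their sequences were seen. A search for the internal A box and B box of tRNA genes, the promoter elements that RNA polymerase III uses, in 401 bp around the summit found the pair in 36 members (2.62%, 1.90 to 3.61%). It was present in 2 of the same regions shifted by 10 kb (0.146%) and in 0.144% of windows along the genome. The share was 0.489% of HET-1A-only distal regions, 0.512% of KYSE-30-only distal regions and 1.26% of the shared regions near a TSS, and 3 of the 33 distal regions with peaks in all 3 lines had the pair. The annotation used here lists 0 tRNA genes on the nuclear chromosomes, so a tRNA gene did not count as a TSS when regions were taken as distal.

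Of the 36 members 11 lay on chromosome 6 from 26 to 29 Mb, where 17 members lay in all and 1 held an AP-1 core. An AP-1 core was present in 2 of the 36 (5.56%), against 55.3% of all members. Their lower fold enrichment ran from 3.14 to 7.24 with a median of 4.59, and that of all members had a median of 4.60. KYSE-30 library 4 had a peak at 4 of the 36 (11.1%), and at 113 of all 1372 members. The 2 with the highest lower fold enrichment are shown on the strand of the match (hg19, plus), with the A box and B box in capitals, as examples of members without an AP-1 core.
14.5 kb upstream of ZNF692, chr1:249168051-249168157: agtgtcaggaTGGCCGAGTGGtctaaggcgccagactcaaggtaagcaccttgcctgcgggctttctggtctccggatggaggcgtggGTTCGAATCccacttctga
103 kb upstream of SCAND3, chr6:28687478-28687550: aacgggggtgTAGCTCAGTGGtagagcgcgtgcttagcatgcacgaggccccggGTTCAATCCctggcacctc
The first had a fold enrichment of 7.24 in HET-1A library 2 and 8.28 in KYSE-30 library 6, and the second 6.22 and 6.69. The cyclic AMP response element TGACGTCA, also searched after the data were seen, was in 11 members (0.802%) and in 0 of the windows 10 kb away. It was in 3.24% of shared regions near a TSS, and in 0.310% of HET-1A-only and 0.220% of KYSE-30-only distal regions.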
